A study of Oryza sativa with 4 samples.

Results

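The 2 root libraries of the series, 1 from the rice cultivar Sharbati and 1 from the cultivar Lalat, were compared gene by gene. The members were the loci listed for root at 10 FPKM or more in at least 1 of the 2 libraries, where FPKM is the number of sequenced fragments scaled to transcript length and to the size of the library. This gave 10237 of the 25225 loci listed for root and of the 31453 listed in any of the 4 libraries. Of these, 9271 were above 0 in both root libraries and were compared, 908 were listed at 0 in Sharbati root and 58 at 0 in Lalat root. At the 10 FPKM line, a sucrose synthase locus (LOC_Os03g22120) at 0 FPKM in Sharbati root and 10.0 in Lalat root lay just inside. An SSXT protein locus (LOC_Os12g31350) at 8.18 FPKM in Sharbati root and 9.99 in Lalat root lay just outside.

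Both cultivars are unmodified indica rice, grown in pots of soil and farmyard manure in a net house without any treatment, and roots were taken 15 days after the panicle emerged, when the grain was filling. The labels give 24.88 ppm iron in the grain of Sharbati and 7.80 ppm in that of Lalat. Each cultivar was represented by 1 root library and 1 grain library, and the number of plants behind a library is not stated. The series' design text mentions 6 libraries, of which the 4 at hand were analysed here. There are therefore no replicates: cultivar, plant and library cannot be told apart, no test was possible, and every difference below is one between 2 libraries.

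Rice roots take up water, silicon, nitrogen and iron through channels and carriers in the outer and inner cell layers, and pass them to the xylem. In flooded soil the root meets little oxygen, and sucrose synthase, pyruvate decarboxylase and alcohol dehydrogenase keep glycolysis running by fermenting its product to ethanol. Phenylalanine ammonia-lyase opens the phenylpropanoid pathway, which supplies lignin for the wall barriers of the root and phenolic defence compounds. Pathogenesis-related proteins, proteinase inhibitors and small secreted peptides form much of the inducible defence of the plant.

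The label root was borne out by some markers and not by others. The silicon channel Lsi1 (LOC_Os02g51110) had 143 FPKM in Sharbati root and 88.0 in Lalat root, and in grain 0.0700 in Sharbati and 0.490 in Lalat. Over 8 listed root markers the summed level was 352 FPKM in Sharbati root and 311 in Lalat root, and 1.38 and 1.33 in the grain libraries of Sharbati and Lalat. The root cortex gene RCc3 (LOC_Os02g44310) was nevertheless listed at 0 in Sharbati root and at 6.39 FPKM in Lalat root. All 6 green tissue markers were below 10 FPKM in both, with sums of 22.1 FPKM in Sharbati root and 13.3 in Lalat root. Summed FPKM of the 15 listed endosperm markers was 97.3 in Sharbati root and 2334 in Lalat root, with 4 at 10 FPKM or more in Sharbati root and 11 in Lalat root. In this list the prolamin box factor RPBF (LOC_Os02g15350), which controls storage genes in endosperm, was at 0 in Sharbati root and at 3.11 FPKM in Lalat root.

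Depth is not given for either library. In Sharbati root 606 loci carried the deposited p-value of 0.158655 that the authors' table gives for the smallest level against 0, read here as 1 fragment. Their median was 1.07 FPKM (5th to 95th percentile 0.223 to 7.14), against 0.105 FPKM (0.0243 to 0.835) for 973 such loci in Lalat root, so a value of a few FPKM in Sharbati root can rest on 1 fragment. Of the loci called lower below, 1268 (67.1%) were under 7.14 FPKM in Sharbati root. A locus listed at 0 there is not shown to be silent, since genes of the ribosome that every cell uses, such as 40S ribosomal protein S27 (LOC_Os02g27769, 0 FPKM in Sharbati root and 3782 in Lalat root), were also listed at 0.

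Over the 9271 loci compared, log2((FPKM + 1) of Sharbati root over (FPKM + 1) of Lalat root) had a median of -1.09. This offset was subtracted from every ratio, and a locus is called higher or lower where the remaining ratio was at least 2-fold (1 on the log2 scale). On that scale 1434 loci (15.5%) were higher and 1891 (20.4%) were lower in Sharbati root, and these percentages are the background for each group below. The filter favours a difference in loci that reached 10 FPKM in 1 library alone, so the values of loci at 10 FPKM or more in both are added where they change a group's picture. Counts and medians for such loci use their own median offset of -0.72 in place of -1.09, which lowers each ratio by 0.37. They therefore differ from the main values through the offset as well as through the filter. Of the groups below, 10 were chosen after their values were seen: SCP-like, PR10, glycine-rich, proteinase inhibitor II, nepenthesin, early nodulin 93, abscisic stress-ripening, RALF and thionin loci, and organelle products. The lower and upper quartiles of the ratios were -0.78 and 0.67. Without the offset 321 loci were higher and 4927 lower, so a gene at equal FPKM in both libraries counts as higher in Sharbati root here. The authors' deposited table called 184 of the compared loci (1.98%), of which 69 were higher, 114 lower and 1 neither by this rule.

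**Figure D1:**
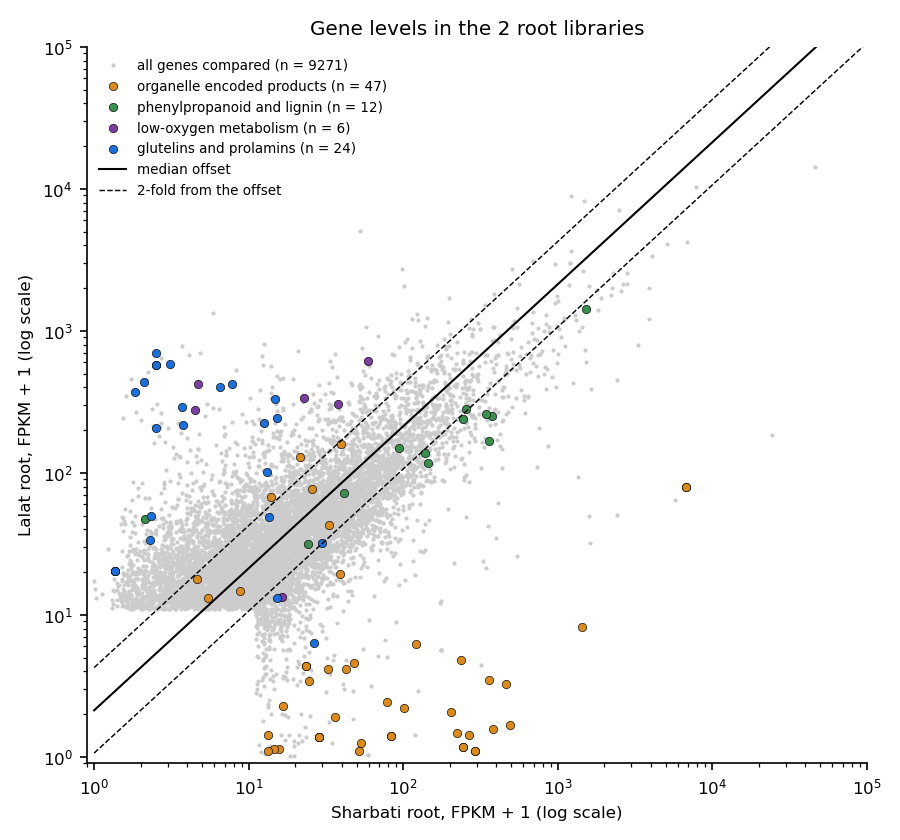
FPKM + 1 in Sharbati root (horizontal) and in Lalat root (vertical), both on log scales, with 1 point for each of the 9271 loci compared. The solid line is the median offset and the dashed lines lie 2-fold to either side; most glutelins and prolamins and 5 of 6 low-oxygen genes lie above the upper line, and most loci annotated with organelle encoded products lie far below the lower one.

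Enzymes of fermentation and sucrose breakdown were much lower in the Sharbati root library. Of 6 low-oxygen genes compared, 5 were lower and 1 higher, with a median log2 ratio of -2.54. Alcohol dehydrogenase, which makes ethanol from acetaldehyde, had 21.7 FPKM in Sharbati root and 335 in Lalat root for ADH1 (LOC_Os11g10480). For ADH2 (LOC_Os11g10510) the values were 58.1 FPKM in Sharbati root and 615 in Lalat root. Both genes lie next to each other on chromosome 11 and had ratios of -2.80 and -2.29.

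Pyruvate decarboxylase, the step before it, was split between its genes. PDC2 (LOC_Os03g18220) had 3.52 FPKM in Sharbati root and 278 in Lalat root, a ratio of -4.86. PDC1 (LOC_Os05g39310) had 15.3 FPKM in Sharbati root and 12.4 in Lalat root, a ratio of 1.38 after the offset and near equality as deposited. Sucrose synthase, which opens sucrose to metabolism, stood at 3.67 FPKM in Sharbati root and 420 in Lalat root for SUS1 (LOC_Os03g28330). For SUS2 (LOC_Os06g09450) it stood at 37.1 FPKM in Sharbati root and 306 in Lalat root. These are ratios of -5.40 and -1.92, and SUS1 had one of the 12 lowest ratios among well annotated genes, those of known product at 20 FPKM or more that are neither storage proteins nor organelle products. Both haemoglobins of the list, oxygen-binding proteins that rise in plant tissues short of oxygen, were listed at 0 in Sharbati root, against 22.3 FPKM (LOC_Os03g13140) and 126 FPKM (LOC_Os03g12510) in Lalat root.

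The authors' deposited table called ADH1, PDC2 and SUS1 different, and left ADH2, PDC1 and SUS2 uncalled. In the grain libraries 6 genes of this list could be compared, without PDC1 and with 1 of the haemoglobins (LOC_Os03g12510). Their median ratio was 0.80, with 2 higher and none lower in Sharbati, where 12.5% of 5157 compared loci were higher and 12% lower. SUS1 there had 16.2 FPKM in Sharbati and 3.58 in Lalat. SUS2 there had 247 FPKM in Sharbati and 118 in Lalat, and PDC2 had 65.6 FPKM in Sharbati and 80.5 in Lalat. In grain ADH1 had 63.2 FPKM in Sharbati and 40.3 in Lalat, and ADH2 had 51.5 FPKM in Sharbati and 48.0 in Lalat. Each of these genes, SUS1 included, was lower in both grain libraries than in Lalat root. The endosperm marker sum given above was also lower in Sharbati root than in Lalat root. The part of grain RNA in the root values was not tested.

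Among glycolytic enzymes the lower loci outnumbered the higher ones, around a median at the offset. Of 46 loci matched by words for glycolytic enzymes, which include some other aldolases and kinases, 6 were higher and 14 lower, with a median of 0.01. Among the lower ones, a cytosolic triosephosphate isomerase (LOC_Os01g62420) had 15.7 FPKM in Sharbati root and 285 in Lalat root. Its sister locus LOC_Os01g05490 had 390 FPKM in Sharbati root and 639 in Lalat root, a ratio of 0.38. Glyceraldehyde-3-phosphate dehydrogenase (LOC_Os04g40950), often used as a reference gene, had 58.7 FPKM in Sharbati root and 568 in Lalat root, a ratio of -2.16. The other reference genes lay closer to the offset: actin ACT1 (LOC_Os03g50885) at 0.52, ubiquitin UBQ5 (LOC_Os01g22490) at -0.04 and elongation factor EF1a (LOC_Os03g08010) at -0.51.

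The early nodulin 93 family, small membrane proteins linked to nitrogen supply in rice, was low in the same library. All 5 loci compared were lower in Sharbati root, with ratios from -5.21 to -1.02, and 1 more was listed at 0 there. LOC_Os06g04990 had 7.24 FPKM in Sharbati root and 534 in Lalat root. LOC_Os06g05020, its neighbour on chromosome 6, had 1.67 FPKM in Sharbati root and 210 in Lalat root.

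**Figure D2:**
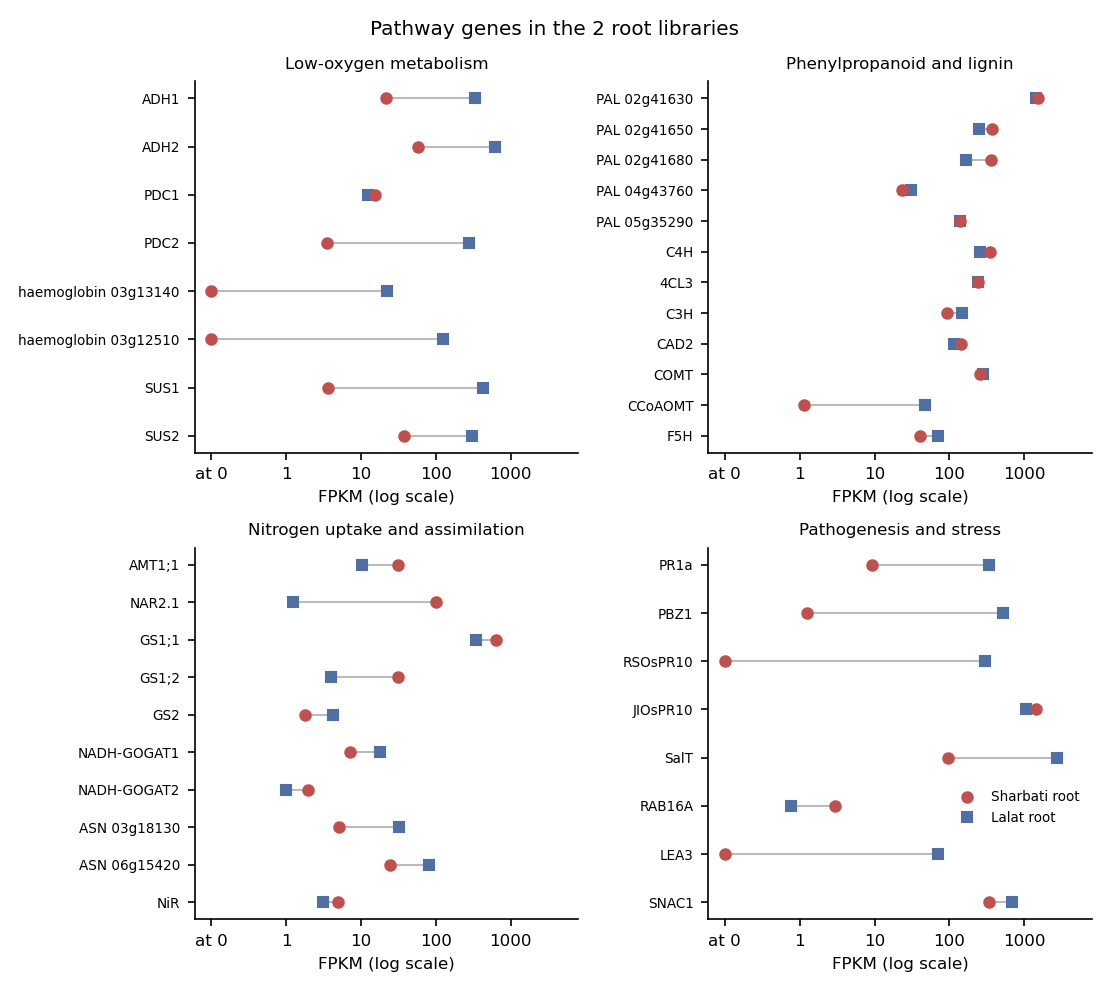
FPKM on a log scale of the genes of 4 pathways in Sharbati root (red circles) and Lalat root (blue squares), 1 row per gene, with genes listed at 0 drawn at the left edge. Low-oxygen genes other than PDC1 lie far to the left in Sharbati root. Phenylpropanoid genes other than a caffeoyl-CoA O-methyltransferase lie close together. NAR2.1, AMT1;1 and both listed cytosolic glutamine synthetases lie to the right in Sharbati root.

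Genes of the phenylpropanoid pathway kept their deposited level in Sharbati root while most genes stood lower there. Of 12 compared, 7 were higher and 1 lower, with a median of 1.1 after the offset and 0.01 as deposited. Phenylalanine ammonia-lyase, which makes cinnamate, was abundant in both roots: LOC_Os02g41630 had 1529 FPKM in Sharbati root and 1424 in Lalat root. Its neighbour LOC_Os02g41650 had 373 FPKM in Sharbati root and 251 in Lalat root. Another locus nearby, LOC_Os02g41680, had 360 FPKM in Sharbati root and 166 in Lalat root, and its ratio of 2.20 was the largest of the group.

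Later steps were higher or near the offset. Cinnamate 4-hydroxylase C4H (LOC_Os05g25640) had 343 FPKM in Sharbati root and 260 in Lalat root (ratio 1.49). The coumarate ligase 4CL3 (LOC_Os02g08100) had 243 FPKM in Sharbati root and 239 in Lalat root (1.11). Cinnamyl alcohol dehydrogenase CAD2 (LOC_Os02g09490), the last step to lignin monomers, had 143 FPKM in Sharbati root and 116 in Lalat root (1.39). Hydroxylases C3H (LOC_Os05g41440) and F5H (LOC_Os10g36848) had ratios of 0.43 and 0.28. The lower one was a caffeoyl-CoA O-methyltransferase (LOC_Os06g06980), with 1.14 FPKM in Sharbati root and 46.7 in Lalat root (-3.39). Among the 11 at 10 FPKM or more in both libraries, with the offset of -0.72 for such loci, 4 were higher and none lower (median 0.74). All 7 genes called higher with the main offset are among these 11, so the smaller count comes from the changed offset. None of the 12 was called in the authors' deposited table.

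Secreted peroxidases went both ways, and groups of wall building held more lower than higher loci. Of 27 secreted peroxidases, which can couple lignin monomers, 8 were higher and 10 lower (median 0.13). Among the 17 at 10 FPKM or more in both libraries 6 were higher and 3 lower (median 0.08). Of 5 dirigent proteins compared 2 were higher and none lower (median 0.83). No laccase of 16 listed reached 10 FPKM in either root library. The peroxidases differed widely in ratio. They ranged from LOC_Os03g25340 at 0.859 FPKM in Sharbati root and 268 in Lalat root to LOC_Os03g55410 at 13.3 FPKM in Sharbati root and 2.69 in Lalat root. Of 12 cellulose synthases and related enzymes none was higher and 6 were lower (median -0.90). Among them, the primary wall subunit CESA6 (LOC_Os07g14850) had 1.29 FPKM in Sharbati root and 29.6 in Lalat root, and CESA1 (LOC_Os05g08370) had 14.6 FPKM in Sharbati root and 41.6 in Lalat root, a ratio of -0.36. The highest ratio was that of CSLE2 (LOC_Os02g49332), at 13.6 FPKM in Sharbati root and 16.2 in Lalat root (0.86). Too few of the 12 reached 10 FPKM in both libraries for a median there. The lower calls may thus rest on loci that entered through Lalat root alone.

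Of 10 loci matched by words for xyloglucan and family 16 hydrolases, mostly wall-loosening enzymes but also a xyloglucanase inhibitor (LOC_Os05g33430), none was higher and 5 were lower (median -0.80). For the 5 at 10 FPKM or more in both libraries the median was -0.01, with 2 lower, and a further 4 at 10 FPKM or more in Lalat root were listed at 0 in Sharbati root. Of 10 expansins at 10 FPKM or more, 5 were listed at 0 in Sharbati root, 3 were lower and 1 was higher. The higher one, a beta-expansin (LOC_Os07g31390), had 12.6 FPKM in Sharbati root and 0.380 in Lalat root. All 3 fasciclin proteins compared were lower and 3 more were at 0 in Sharbati root. Of the 3 compared, LOC_Os01g47780 and LOC_Os08g23180 had 1.14 and 0.571 FPKM in Sharbati root, low levels that may rest on few fragments.

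Single genes of nitrogen uptake and of ammonium fixation were higher in the Sharbati root library. NAR2.1 (LOC_Os02g38230), the partner protein that high-affinity nitrate carriers need, had 102 FPKM in Sharbati root and 1.23 in Lalat root, a ratio of 6.62. The authors' deposited table called it. The carrier NRT2.1 (LOC_Os02g02170) was listed at 0 in Sharbati root and at 0.379 FPKM in Lalat root. NRT2.3 (LOC_Os01g50820) had 1.56 FPKM in Sharbati root and 0.991 in Lalat root, and neither carrier reached 10 FPKM.

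The ammonium transporter AMT1;1 (LOC_Os04g43070) had 31.2 FPKM in Sharbati root and 10.2 in Lalat root (ratio 2.62). Cytosolic glutamine synthetase, which fixes ammonium in the root, was higher for both genes listed. GS1;1 (LOC_Os02g50240) had 643 FPKM in Sharbati root and 346 in Lalat root (1.98), and GS1;2 (LOC_Os03g12290) had 30.9 FPKM in Sharbati root and 4.01 in Lalat root (3.76). Of 5 nitrogen assimilation genes compared, 2 were higher and 1 lower (median -0.16). Among the enzymes that take glutamine further, glutamate synthase NADH-GOGAT1 (LOC_Os01g48960) had a ratio of -0.16, and the asparagine synthetases LOC_Os03g18130 and LOC_Os06g15420 had ratios of -1.35 and -0.59. Among 17 nitrate and peptide transporters and nitrate-induced proteins, 7 were higher and none lower (median 0.75). The highest after NAR2.1 was a peptide transporter (LOC_Os04g36040), at 104 FPKM in Sharbati root and 47.5 in Lalat root.

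Among mineral carriers the direction depended on the gene. The silicon exporter Lsi2 (LOC_Os03g01700), which works with Lsi1, had a ratio of 2.88 and Lsi1 one of 1.78. The phosphate carrier PT8 (LOC_Os10g30790) had 55.6 FPKM in Sharbati root and 62.7 in Lalat root (0.92). PHO1;2 (LOC_Os02g56510), which loads phosphate into the xylem, had 9.13 FPKM in Sharbati root and 85.0 in Lalat root, and the potassium transporter HAK1 (LOC_Os04g32920) had 3.19 and 18.7 FPKM in Sharbati and Lalat root (-1.14).

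Of 11 iron genes compared, 5 were higher and 1 lower (median 0.31). The largest ratio was that of PEZ1 (LOC_Os03g37490), a phenolics efflux protein that helps to free iron in the root stele, with 16.6 FPKM in Sharbati root and 2.47 in Lalat root (3.43). Iron carrier IRT1 (LOC_Os03g46470) had 15.0 FPKM in Sharbati root and 8.34 in Lalat root (1.86), and DMAS1 (LOC_Os03g13390), the last enzyme of deoxymugineic acid synthesis, had 12.2 FPKM in Sharbati root and 9.21 in Lalat root (1.47). Citrate effluxer FRDL1 (LOC_Os03g11734) was the lower one, with 8.31 FPKM in Sharbati root and 41.3 in Lalat root (-1.09). None of the 11 was called in the authors' deposited table.

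Of 19 aquaporins compared 3 were higher and 6 lower (median -0.22), and both the tonoplast and the plasma membrane channels differed among themselves. The tonoplast channels TIP1;1 (LOC_Os03g05290) and TIP2;2 (LOC_Os06g22960) had 11.2 and 1.70 FPKM in Sharbati root, against 668 and 225 in Lalat root, ratios of -4.69 and -5.30. The tonoplast channel TIP1;2 (LOC_Os01g74450) had 9.79 FPKM in Sharbati root and 29.2 in Lalat root (-0.40). Among the plasma membrane channels, PIP2;4 (LOC_Os07g26630) had 121 FPKM in Sharbati root and 316 in Lalat root (-0.28), and PIP2;1 (LOC_Os07g26690) had 66.2 FPKM in Sharbati root and 334 in Lalat root (-1.23). PIP2;5 (LOC_Os07g26660) and PIP1;1 (LOC_Os02g44630) were also lower, at -1.60 and -1.09. In grain TIP1;1 had 179 FPKM in Sharbati and 369 in Lalat.

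**Figure D3:**
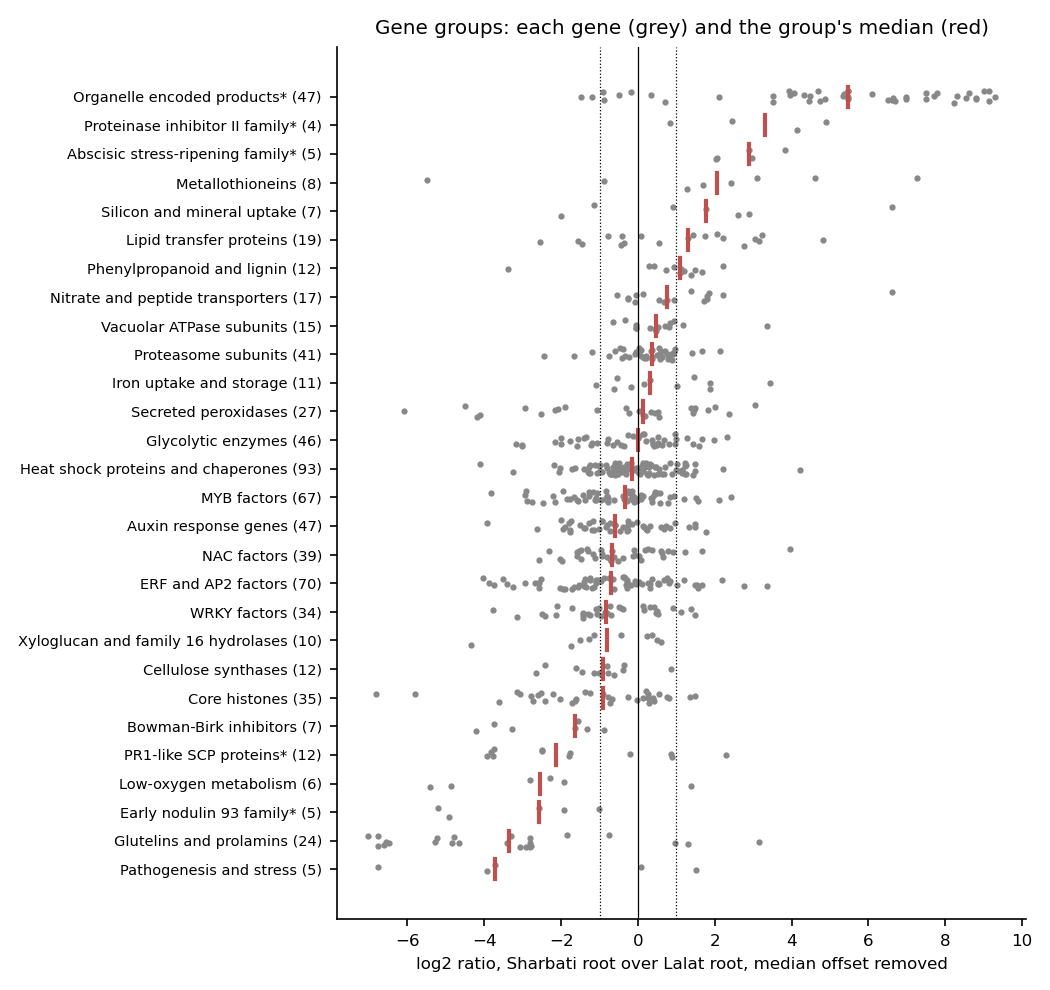
Log2 ratio of Sharbati root over Lalat root after the median offset was removed (horizontal) for each gene (grey points) of 28 groups, with the number of genes compared in brackets and the group's median as a red bar; an asterisk marks groups chosen after their values were seen. Dotted lines mark 2-fold; the medians run from 5.46 for organelle products to -3.71 for pathogenesis and stress genes, and most groups span both sides.

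Defence genes differed in direction between and within families. Of 5 listed pathogenesis and stress genes compared 1 was higher and 3 were lower (median -3.71), and the 3 of them at 10 FPKM or more in both libraries had a median of -0.28. The PR10 proteins PBZ1 (LOC_Os12g36880) and RSOsPR10 (LOC_Os12g36830), which respond to pathogens and to salt stress, had 1.24 and 0 FPKM in Sharbati root, against 514 and 302 in Lalat root. JIOsPR10 (LOC_Os03g18850) of the same family, which responds to jasmonate, had 1434 FPKM in Sharbati root and 1067 in Lalat root (ratio 1.52). The PR1 protein PR1a (LOC_Os07g03710) had 9.24 FPKM in Sharbati root and 334 in Lalat root (-3.94). SalT (LOC_Os01g24710), a salt-induced lectin, had 96.9 FPKM in Sharbati root and 2725 in Lalat root (-3.71).

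PR1a belongs to a run of SCP-like loci on chromosome 7 (positions 1319030 to 1512958, for the 6 with at least 4-fold lower levels; the genome build of these positions is not stated). Of the 12 loci of this kind compared, 8 were lower and 1 higher, and the 4 at 10 FPKM or more in both libraries had a median of 0.51. The run was not uniform: LOC_Os07g03458 had 6.83 FPKM in Sharbati root and 228 in Lalat root, while LOC_Os07g03620 had 39.1 FPKM in Sharbati root and 16.4 in Lalat root. Loci of the run may share reads, as LOC_Os07g03288 and LOC_Os07g03590 had the same values.

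Proteinase inhibitors went both ways. All 7 Bowman-Birk inhibitors compared, which block trypsin-like enzymes, had negative ratios, 6 of them at least 2-fold (median -1.65). BBTI4 (LOC_Os01g03340) had 100.0 FPKM in Sharbati root and 2072 in Lalat root, and BBTI5 (LOC_Os01g03360) had 13.1 FPKM in Sharbati root and 403 in Lalat root. Of 4 proteinase inhibitor II genes side by side on chromosome 3, 3 were higher. PIII4 (LOC_Os03g52370) had 353 FPKM in Sharbati root and 41.3 in Lalat root (ratio 4.15), PIII3 (LOC_Os03g52360) had 40.7 FPKM in Sharbati root and 2.01 in Lalat root (4.88), and PIII1 (LOC_Os03g52390), at the end of the row, had 120 FPKM in Sharbati root and 144 in Lalat root (0.83). Of 6 chitinases, enzymes against fungal walls, none was 2-fold apart, and 2 more were listed at 0 in Sharbati root.

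Small secreted peptides and wall proteins gave some of the lowest ratios. RALFL28 (LOC_Os06g29730), a rapid alkalinisation factor, had 2.68 FPKM in Sharbati root and 778 in Lalat root (-6.64). RALFL7 (LOC_Os01g25560) of the same family had 157 FPKM in Sharbati root and 93.2 in Lalat root (1.84), and 4 of the 6 compared were not 2-fold apart. A run of glycine-rich cell wall proteins on chromosome 10 (16581495 to 16673464) held 4 loci with ratios from -6.27 to -4.26, the lowest being LOC_Os10g31660 at 3.09 FPKM in Sharbati root and 671 in Lalat root. Elsewhere in the genome 3 proteins of this name were higher, among them LOC_Os02g37480 at 133 FPKM in Sharbati root and 26.7 in Lalat root.

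Diterpenoid phytoalexins, antimicrobial compounds of rice, had low levels in both roots. Of 10 biosynthetic genes, only CPS4 (LOC_Os04g09900) reached 10 FPKM, with 0 in Sharbati root and 13.4 in Lalat root, and the other 9 were below 10 FPKM in both libraries.

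Stress and lipid-binding proteins included loci that were high in Sharbati root. All 5 abscisic stress-ripening genes compared, small proteins that bind zinc and respond to drought and to aluminium, were higher, with a median of 2.90. LOC_Os01g72910 had 408 FPKM in Sharbati root and 60.5 in Lalat root (3.82), LOC_Os02g33820 had 754 FPKM in Sharbati root and 205 in Lalat root (2.96), and LOC_Os11g06720 had 924 FPKM in Sharbati root and 472 in Lalat root (2.06). Their grain levels were low, at most 5.79 FPKM. The 5 loci lie on 3 chromosomes. LOC_Os01g72900, LOC_Os01g72910 and LOC_Os01g73250 lie in the same run of higher loci on chromosome 1 (42281271 to 42462334). Whether neighbours there share reads was not tested.

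Of 19 lipid transfer proteins, 10 were higher and 3 lower (median 1.31), and a further 7 were listed at 0 in Sharbati root; with these kept at 0 the median was -0.28. For the 12 at 10 FPKM or more in both libraries it was 0.32, with 5 higher and 3 lower. LTPL118 (LOC_Os03g50960) had 3325 FPKM in Sharbati root and 799.5 in Lalat root (3.14). LTPL17 (LOC_Os05g40010) had 67.4 FPKM in Sharbati root and 4.13 in Lalat root (4.83), and LTPL147 (LOC_Os10g40614) went the other way, listed at 0 in Sharbati root and at 170 FPKM in Lalat root. Of 14 nepenthesin-type aspartic proteinases 6 were higher and 3 lower (median 0.24), and of the 7 at 10 FPKM or more in both libraries 2 were higher and 4 lower (median -1.04). The highest ratio was that of LOC_Os03g20260, at 54.2 FPKM in Sharbati root and 4.79 in Lalat root (4.34).

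Metallothioneins, cysteine-rich proteins that bind zinc and copper, differed in direction within the family. Of 8 compared, 6 were higher and 1 lower (median 2.05), and the 7 at 10 FPKM or more in both libraries had a median of 1.31. LOC_Os05g11320 had 320 FPKM in Sharbati root and 3.47 in Lalat root. Its ratio of 7.26 was the highest among well annotated genes. LOC_Os01g74300 had 51.6 FPKM in Sharbati root and 5057 in Lalat root (-5.50). Summed over the 10 listed loci the family stood at 2150 FPKM in Sharbati root and 6424 in Lalat root, so the sum runs opposite to the count. These are short genes, and reads of near-identical copies may be split between them.

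**Figure D4:**
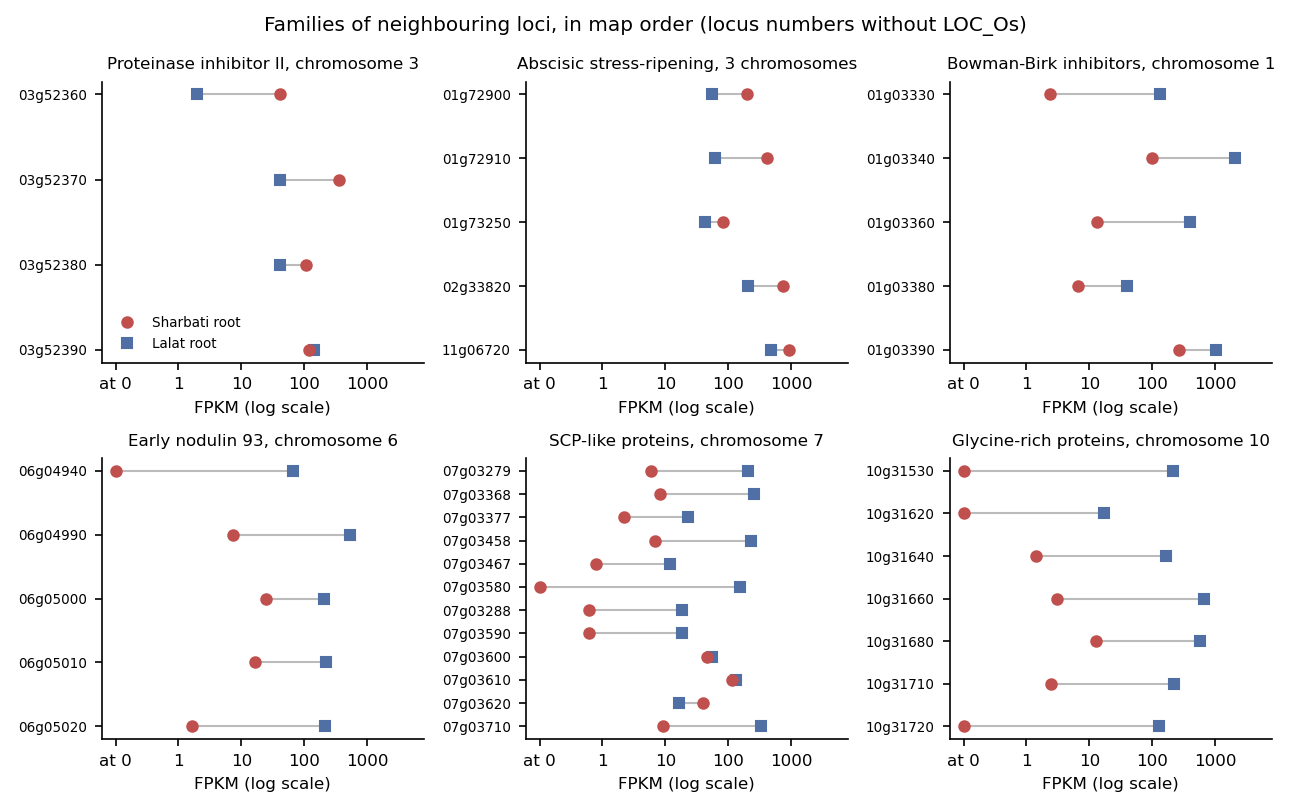
FPKM on a log scale of 6 gene families in Sharbati root (red circles) and Lalat root (blue squares), 1 row per locus in map order, with loci listed at 0 drawn at the left edge. The proteinase inhibitor II and abscisic stress-ripening loci lie to the right in Sharbati root except LOC_Os03g52390, and the other 4 families lie mostly to the left.

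Transcription factor families of stress responses were lower as groups. Of 70 ERF and AP2 factors, 9 were higher and 32 lower (median -0.70). Of 34 WRKY factors, which act in defence, 3 were higher and 15 lower (-0.83). NAC factors had 3 higher and 13 lower of 39 (-0.68), and MYB factors 5 and 23 of 67 (-0.33). The bHLH factors, with 6 higher and 7 lower of 29 (0.13), did not share the direction. Among all loci at 10 FPKM or more in both libraries, 556 of 5499 were higher and 769 lower. There ERF and AP2 factors had 6 higher and 11 lower of 41 (median -0.36), and WRKY factors 2 and 11 of 22 (-0.95). NAC factors had 1 higher and 6 lower of 21 there (-0.34), MYB factors 3 and 9 of 37 (-0.47), and bHLH factors 1 and 4 of 18 (0.003).

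Single factors ranged widely within their families. WRKY28 (LOC_Os06g44010) had 3.55 FPKM in Sharbati root and 131 in Lalat root (-3.77), and WRKY62 (LOC_Os09g25070), a regulator of defence in rice, had 6.10 FPKM in Sharbati root and 133 in Lalat root (-3.15). WRKY97 (LOC_Os12g02420) had 84.0 FPKM in Sharbati root and 68.1 in Lalat root (1.39). An AP2 domain protein (LOC_Os03g08490) had 137 FPKM in Sharbati root and 27.5 in Lalat root (3.37). Stress factor SNAC1 (LOC_Os03g60080) lay at the offset, with 338 FPKM in Sharbati root and 678 in Lalat root (0.09).

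Auxin response genes had 4 higher and 17 lower of 47 (median -0.60). The repressor gene OsIAA17 (LOC_Os05g14180) had 265 FPKM in Sharbati root and 165 in Lalat root (1.77), and an auxin-repressed protein (LOC_Os08g35190) had 10.8 FPKM in Sharbati root and 382 in Lalat root (-3.93). Among 55 receptor-like kinases 11 were higher and 8 lower (-0.02). One of them, annotated as BRI1-associated (LOC_Os11g31540), had 4.86 FPKM in Sharbati root and 1335 in Lalat root (-6.74), and another of that annotation (LOC_Os01g59440) had 536 FPKM in Sharbati root and 337 in Lalat root (1.76).

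Among genes that every cell uses, ribosomal proteins and histones were lower more often than the background, and the other groups lay near the offset. Of 181 cytosolic ribosomal proteins 15 were higher and 56 lower (median -0.56), and of 35 core histones 2 were higher and 17 lower (-0.92). Of 41 proteasome subunits 3 were higher and 3 lower (0.37), and of 15 vacuolar ATPase subunits 2 were higher and none lower (0.48). Among 29 nuclear loci of the respiratory chain 4 were higher and 1 lower (0.42). At 10 FPKM or more in both libraries the medians of these 3 groups were 0.06, 0.08 and 0.07. One of the 4 higher respiratory loci, an ATP synthase locus on chromosome 9 (LOC_Os09g08910, 123 FPKM in Sharbati root and 1.92 in Lalat root), lies next to loci annotated with mitochondrial products. Of 93 heat shock proteins and chaperones 15 were higher and 16 lower (-0.16).

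Loci annotated with products that mitochondria or plastids encode formed the upper end of the ratios. Of 47 compared, with 39 distinct pairs of values, 39 were higher and 2 lower (median 5.46). Only 8 of them reached 10 FPKM in both libraries, with 3 higher, 3 lower and a median of -0.26. The 160 listed loci summed to 20490 FPKM in Sharbati root and 804 in Lalat root. These sums count values shared between loci more than once. The largest share came from LOC_Os04g16722 and LOC_Os04g16896, which had the same 6756 FPKM in Sharbati root. Loci with such products lay in several runs besides the one on chromosome 12 (20452979 to 20701405, 22 loci with ratios from 2.1 to 9.30). Of these 22 loci 19 had such products, and the run held 17 distinct pairs of values. On chromosome 4 (9094074 to 9154210) 5 loci had 14.7 to 6756 FPKM in Sharbati root and 0.136 to 78.5 in Lalat root. Of these 5 loci 4 had such products, and the run held 3 distinct pairs of values. On chromosome 10 (10788994 to 10873822) 4 loci, 3 of them with such products, had 12.3 to 77.6 FPKM in Sharbati root and 0.105 to 4.02 in Lalat root.

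Runs of higher loci on chromosome 1 (42281271 to 42462334), chromosome 2 and chromosome 12 (23744663 to 23783531) held no such product. On chromosome 2 (22572213 to 22663395) 8 neighbouring loci had 33.8 to 2404 FPKM in Sharbati root and 0.254 to 49.8 in Lalat root, with ratios from 2.89 to 6.66. They are annotated as expressed proteins, a retrotransposon, a glycine-rich wall protein, an RNA-binding protein (LOC_Os02g37520, 341 FPKM in Sharbati root and 20.3 in Lalat root) and a keratin-associated protein (LOC_Os02g37570). At a 4-fold line, 363 compared loci (3.92%) lay above and 600 (6.47%) below. They formed 8 runs of at least 4 higher loci with gaps of at most 100 kb, and 10 such runs of lower loci. The longest of the lower runs was the prolamin run on chromosome 5 (15270265 to 15399097), with 9 loci and 6 distinct pairs of values.

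The highest level in both libraries was that of a plastocyanin-like protein (LOC_Os11g24140), at 46573 FPKM in Sharbati root and 14243 in Lalat root. An unannotated locus (LOC_Os12g39930) was second in Sharbati root, at 24484 FPKM, against 185 in Lalat root. Among loci at 0 in Lalat root, the highest was an expressed protein (LOC_Os06g38660) at 183 FPKM in Sharbati root. Among those at 0 in Sharbati root with an annotated product, the highest in Lalat root after the S27 locus were 60S ribosomal protein L39 (LOC_Os06g08320) at 2663 FPKM and a thionin-like peptide (LOC_Os07g25050) at 921 FPKM. Of 12 thionins at 10 FPKM or more, antimicrobial peptides, 11 were listed at 0 in Sharbati root, against 908 of all 10237 members. The only thionin compared was higher, with a ratio of 2.23.

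The share of loci 2-fold apart differed with level and with length. In the 1855 loci with the lowest mean level of the 2 libraries (geometric mean of FPKM + 1, less 1) 8.03% were higher and 41.3% lower. In the 1854 with the highest mean level 22.0% were higher and 13.2% lower. The lowest group had means of at most 9.62 FPKM, so each of its loci reached 10 FPKM in 1 library alone. The filter favours calls in that group, so no conclusion on level is drawn from its shares. Loci with an annotated span under 600 bases were apart most often, with 45.7% higher and 29.1% lower of 127. Beyond 5000 bases 10.5% were higher and 16.6% lower. In Lalat, 9.81% of the compared loci listed for grain stood higher in grain than in root. The shares were 13.9% for the loci higher and 9.28% for those lower in Sharbati root. Lalat root FPKM enters both the calls and this comparison, which favours that order, so no conclusion is drawn from it.

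**Figure D5:**
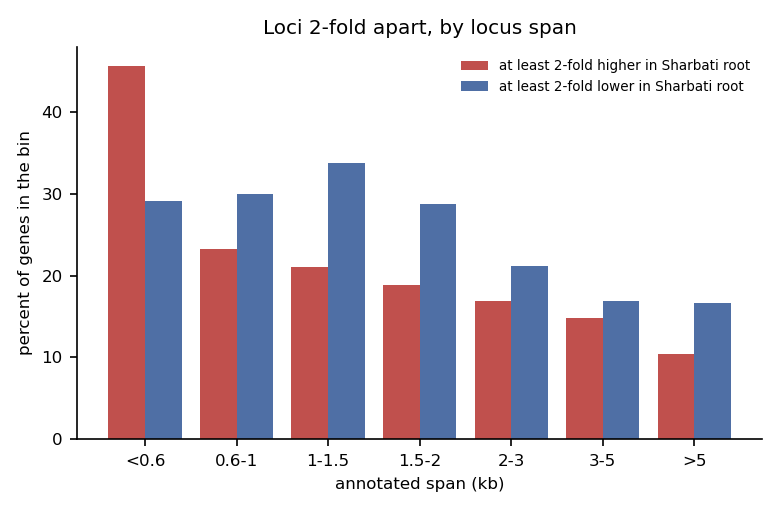
Percent of loci at least 2-fold higher (red) or lower (blue) in Sharbati root than in Lalat root after the offset was removed, by annotated span. The higher calls are most frequent in spans under 600 bases (45.7%).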

How the data were processed

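Poly(A)-selected, paired-end libraries were mapped and quantified by the authors as FPKM per transcript; the submitters' processing notes name Cuffdiff, Cufflinks 1.3.0, TopHat 1.3.3 and Bowtie 0.12.9. No build is named in the sources used here. The deposited FPKM values of the root pair come from 1 Cuffdiff comparison, and because FPKM is scaled to the whole library, abundant transcripts lower the values of all others. The deposited p-value and call compare 2 libraries. The deposited log ratio, headed as a natural log, lay within 0.001 of the log2 of Lalat over Sharbati for 21434 of 21456 transcripts above 0 in both.

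Tables were joined by gene and 1 value was kept per locus (2 loci with different values were summed). The ratio was log2((Sharbati + 1)/(Lalat + 1)), with a pseudocount of 1 FPKM, less its median of -1.09. With 1 library per group there was no test. Genes were grouped by 12 lists of named genes, 43 lists by words of the annotation and 10 lists chosen after values were seen. Members and lists were chosen with earlier results of these data known. The genes named were members of those lists with the largest ratios (for the root, iron, nitrogen, low-oxygen and diterpenoid lists every member could be named), the 12 highest and 12 lowest ratios among well annotated genes at 20 FPKM or more, the highest levels, and genes at 0. Others, such as those of the 10 lists, were chosen after their values were seen. The offset and the calls were tested on simulated data without fragment sampling or loci at 0, so the effect of low depth was not tested. Python 3.11.15, pandas 2.3.3, numpy 2.4.6 and matplotlib 3.10.9 were used.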

Additional observations from a re-analysis of the deposited data

Results flagged for a closer look

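In 11 well annotated genes compared in both organs, the ratio of Sharbati over Lalat was at least 4-fold apart from the offset in root and at least 4-fold apart in the opposite direction in grain. In 9 others both organs were at least 4-fold apart in the same direction, of 3355 genes compared in both. With 1 library per group, the difference between the organs was not tested. The root ratio was -5.82 for a core histone (LOC_Os03g17100), against 2.49 in grain. It was -5.40 for sucrose synthase SUS1 (LOC_Os03g28330), against 2.08 in grain. A mitochondrial 22 kDa heat shock protein (LOC_Os02g52150) had -4.11 in root and 3.00 in grain. A rhodanese-like protein (LOC_Os12g24020) had -3.89 in root and 2.37 in grain. The trypsin inhibitor BBTI5 (LOC_Os01g03360) had -3.75 in root and 4.59 in grain, where Sharbati had 41.0 FPKM and Lalat 0.961. A dehydrin (LOC_Os11g26570) had -3.02 in root, an amine oxidase (LOC_Os04g57560) -2.68, a bZIP factor (LOC_Os06g45140) -2.45 and a NAC factor (LOC_Os12g29330) -2.32, and their grain ratios ran from 2.04 to 2.92. In the opposite sense, a pirin (LOC_Os03g62790) had 2.07 in root and -2.62 in grain, and threonine synthase (LOC_Os05g47640) had 2.41 in root and -2.05 in grain.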

How the results depend on the processing

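The counts of 1434 loci higher and 1891 lower in Sharbati root depended on the offset and the filter. They were 321 and 4927 with no offset removed (6.12% of the loci apart were higher, against 43.1%). With the offset taken where both libraries reached 10 FPKM they were 855 and 2693 (24.1% higher). They were 1335 and 2163 with equal summed FPKM. A pseudocount of 5 gave 1083 and 1212, a filter of 50 FPKM gave 560 and 762, no filter gave 2495 and 2685, and a 4-fold threshold gave 363 and 600. A filter of 10 FPKM in both libraries, added after seeing the data and with its own offset of -0.72, gave 556 and 769. The other alternatives stayed within 1.5 times of both counts. Of 60 lists with 3 or more genes, 19 had a median at least 2-fold from the offset, 41 with no offset, 12 with the filter in both libraries and 11 without spans under 1500 bases. List medians reversed in 8 cases. With no filter, subtilisins stood at 0.44, the PR10 family at 0.45 and glycine-rich wall proteins at 0.012. With loci at 0 kept, lipid transfer proteins stood at -0.28. With 10 FPKM in both libraries, which leaves only loci well above 0 in each, subtilisins stood at 0.29, SCP-like proteins at 0.51, glycine-rich wall proteins at 0.10 and organelle products at -0.26. The cause of the other moves was not tested. Of 101 named genes followed, none that was 2-fold apart reversed under the alternatives in which it was compared; 17 lost that distance with no offset, and 6 with a pseudocount of 5. No paired analysis was possible because each group holds 1 library. Depth is unknown, and low values in Sharbati root may rest on 1 fragment.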
